A study of Mus musculus with 4 samples.

Results

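The LIM cofactor genes examined here are the 10 members Ldb1, Ldb2, Lmo1, Lmo2, Lmo3, Lmo4, Rlim, Ssbp2, Ssbp3 and Ssbp4. They were listed by name as genes of the complex that LIM-homeodomain proteins assemble on DNA, with earlier results of these data known. All 10 were measured, out of 20252 genes with a transcript cluster that carries a single gene symbol. Expression was measured on 4 arrays of neuroretina (the part of the embryonic eye that forms the neural retina) from CD-1 mice at embryonic day 13.5. The 2 control arrays carried the genotype Lhx2 lox/lox, in which both alleles of the LIM-homeodomain gene Lhx2 are flanked by recombination sites. The other 2 arrays carried Chx10-Cre;Lhx2 lox/lox, the same alleles with a transgene in which Chx10 sequences direct Cre recombinase to progenitors of the retina. These arrays are named labelled knockout. Every group shares the floxed alleles, and the Cre transgene stands in the labelled knockout group alone, so that an effect of Cre and one of Lhx2 deletion cannot be told apart. Tissues outside the domain of the transgene keep their Lhx2 alleles. The labels do not state if replicates were separate animals, litters or pooled embryos. The p-values therefore measure the spread between arrays, which may be technical.

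LIM-homeodomain proteins bind DNA through the homeodomain and bind other proteins through their LIM domains. Ldb proteins dimerise and grip LIM domains, which joins LIM-homeodomain proteins, LIM-only (Lmo) proteins, basic helix-loop-helix and GATA factors into larger complexes and brings distant enhancers to promoters. Lmo proteins have LIM domains but no DNA-binding domain, and can either bridge such complexes or compete with LIM-homeodomain proteins for Ldb. Ssbp proteins bind Ldb and protect it from degradation, and Rlim is a ubiquitin ligase that marks Ldb and LIM proteins for degradation.

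Lmo3, the 1 member that passed the test on deposited values, and Lmo1, its close relative, are shown by RefSeq sequence. It covers 250 bases before to 50 after their annotated transcription start. These sequences are shown because LIM-homeodomain proteins bind motifs such as TAATTA and basic helix-loop-helix partners bind the E-box. The table held promoters for 8 of the 10 members (14 start sites). Capitals mark any match, on both strands, to TAATTA (its own reverse complement), to the variant TAATTG, and to the E-box CANNTG. Sequences are from build GRCm38.p6, minus strand, 5′ to 3′, at chr6:138581919-138582218 for Lmo3 and, for the upstream one of 2 annotated Lmo1 starts, at chr7:109175158-109175457.
Lmo3: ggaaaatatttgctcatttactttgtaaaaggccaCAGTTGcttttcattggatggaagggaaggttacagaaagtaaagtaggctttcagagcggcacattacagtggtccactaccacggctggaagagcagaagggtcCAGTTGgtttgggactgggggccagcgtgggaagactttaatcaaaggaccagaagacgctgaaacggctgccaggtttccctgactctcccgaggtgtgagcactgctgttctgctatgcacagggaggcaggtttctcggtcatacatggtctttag
Lmo1: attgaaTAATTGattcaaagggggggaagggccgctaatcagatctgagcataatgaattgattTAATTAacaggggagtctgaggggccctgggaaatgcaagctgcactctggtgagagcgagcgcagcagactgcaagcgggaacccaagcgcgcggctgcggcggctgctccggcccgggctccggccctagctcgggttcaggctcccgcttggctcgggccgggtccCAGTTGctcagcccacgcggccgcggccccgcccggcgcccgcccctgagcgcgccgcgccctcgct
The Lmo3 promoter held 2 E-boxes, both spelled CAGTTG, beginning 215 and 109 bases upstream of the start, and 0 matches to the TAATTA motif or its variant, or to GATA on either strand. An E-box occurs in 72.3% of the 32851 RefSeq promoters of this length, and GATA in 57.9%. The Lmo1 promoter held TAATTA 186 bases upstream of the start, TAATTG 244 bases upstream and a CAGTTG E-box 17 bases upstream. TAATTA occurs in 5.29% and TAATTG in 8.0% of all promoters. Such matches describe letters in this window and show no binding.

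The arrays differed in overall level by replicate number. The median log2 signal over 112205 transcript clusters was 2.97 in control replicate 1 and 3.53 in control replicate 2, and 2.85 and 3.46 in the labelled knockout arrays of the same numbers. The 75th percentile of all clusters, used here as a guide to what is told from background, was 4.06 and 4.52 in control and 3.98 and 4.52 in labelled knockout arrays. Differences are log2 signal in labelled knockout minus control, tested with limma on the deposited values with Benjamini-Hochberg adjustment over all 20252 genes at an adjusted p of 0.05. This fit pooled the spread over genes of like signal, so an SE does not reflect the replicates of that gene. Lhx2, at 6.36 and 6.49 in control and 6.38 and 6.50 in labelled knockout arrays, did not check the genotype labels, since the exons its probes cover are not given in the sources used here. Of 10 neuroretina markers 9 were measured, and each lay above the 75th percentile on every array. Their median difference was -1.11, with 3 passing as lower (Six6, Fgf15 and Rax). Of 15 measured genes of differentiating retinal neurons, 3 passed as lower, and the median difference was -0.33 (-0.83 in replicate 1 and 0.06 in replicate 2). Beside both counts, 0.78% of all genes were called lower.

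Among the 10 cofactor genes, Lmo3 passed the test as higher on deposited values, and the other 9 did not pass. This is 1 of 10 members, beside 2.05% of all genes called in either direction and 1.27% called higher. The median difference over the members was 0.11, beside -0.06 over all genes. Differences of the 9 members that did not pass ran from -0.33 for Ssbp4 to 0.67 for Lmo4. In 4 members (Ldb1, Lmo3 and Lmo4 higher, Ssbp4 lower) the signals of the groups did not overlap, which 19.8% of all genes also showed (9.63% higher and 10.2% lower). The sign was the same in both replicate numbers for 7 members (5 higher and 2 lower), as for 67.3% of all genes (23.1% higher and 44.2% lower). The difference exceeded the gap between replicates in both groups for 2 members, Lmo3 and Ssbp4, and for 13.8% of all genes.

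**Figure D1:**
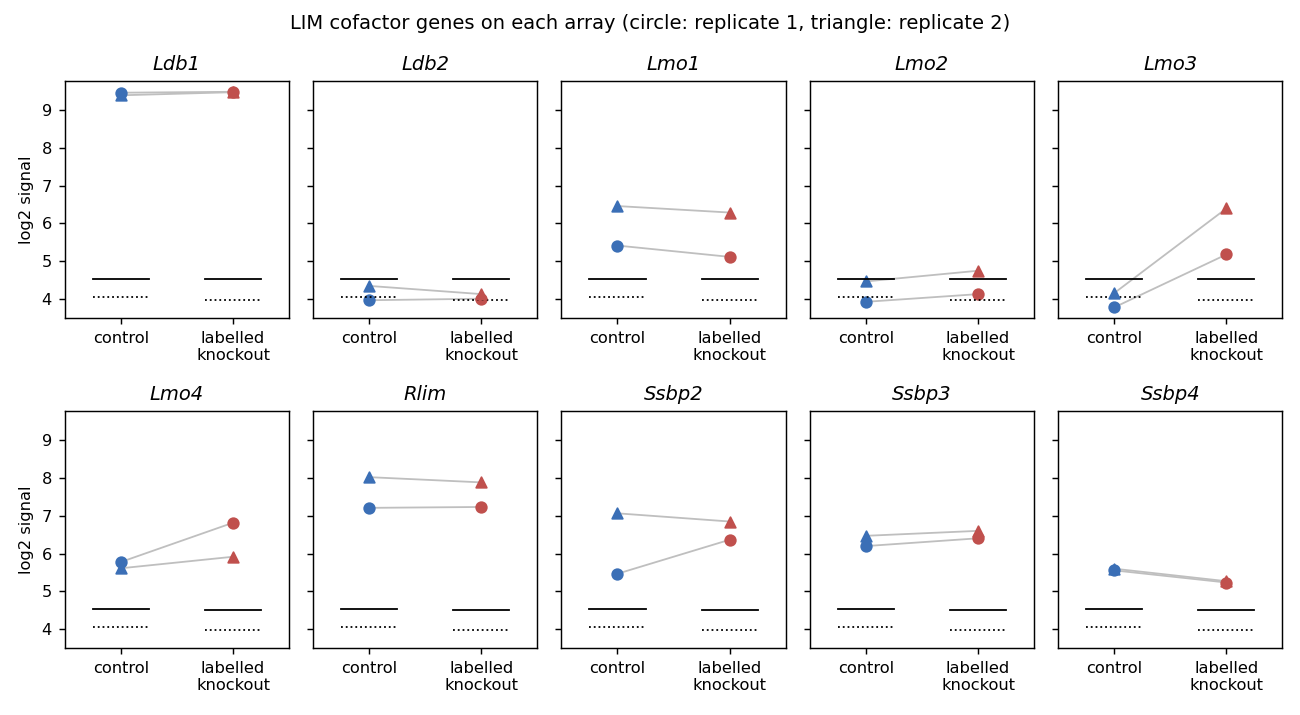
Log2 signal of the 10 LIM cofactor genes on each of the 4 arrays (blue, control; red, labelled knockout; circles, replicate 1; triangles, replicate 2). Grey lines join arrays of the same replicate number, and short black lines mark the 75th percentile of signal on each array (dotted, replicate 1; solid, replicate 2). Lmo3 moves from below those lines in both control arrays to above them in both labelled knockout arrays, while Ldb1 stays between 9.39 and 9.48.

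Lmo3 encodes a LIM-only protein of developing neurons. Its log2 signal (transcript cluster 6957844) was 3.78 in control replicate 1, 4.15 in control replicate 2, 5.18 in labelled knockout replicate 1 and 6.39 in labelled knockout replicate 2. Each control signal was below the 75th percentile of its array, and each labelled knockout signal was above it. The lowest labelled knockout signal was 1.02 above the highest control signal. The mean was 3.97 ± 0.27 (SD, n = 2) in control and 5.79 ± 0.86 (SD, n = 2) in labelled knockout arrays, 3.53-fold higher. The log2 difference was 1.82 (SE 0.42, 95% interval 1.00 to 2.64, limma adjusted p = 0.00134), the 121st largest of 257 rises. Since the control signal was not told from background, the fold compares a signal with one that may be background.

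Between arrays of the same number, Lmo3 differed by 1.40 in replicate 1 and by 2.24 in replicate 2. Its call depended on the processing and on single arrays, while its direction was the same in each setting run. The limma adjusted p was 0.162 after quantile normalization (difference 1.87, SE 0.31). It was 0.131 with each array centred on its median over all clusters, and 0.0978 with the replicate number as a term. In each of these settings 0 of 20252 genes passed, so the loss was not particular to Lmo3. Degrees of freedom, which set how well the spread is taken to be known, were 40504 on deposited values and 4.71 after quantile normalization. Without control replicate 1 the adjusted p was 0.358, and without control replicate 2 it was 0.0763. Leaving out labelled knockout replicate 1 gave 0.00201, and leaving out labelled knockout replicate 2 gave 0.783. The difference ran from 1.21 to 2.43 over these 4 fits.

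**Figure D2:**
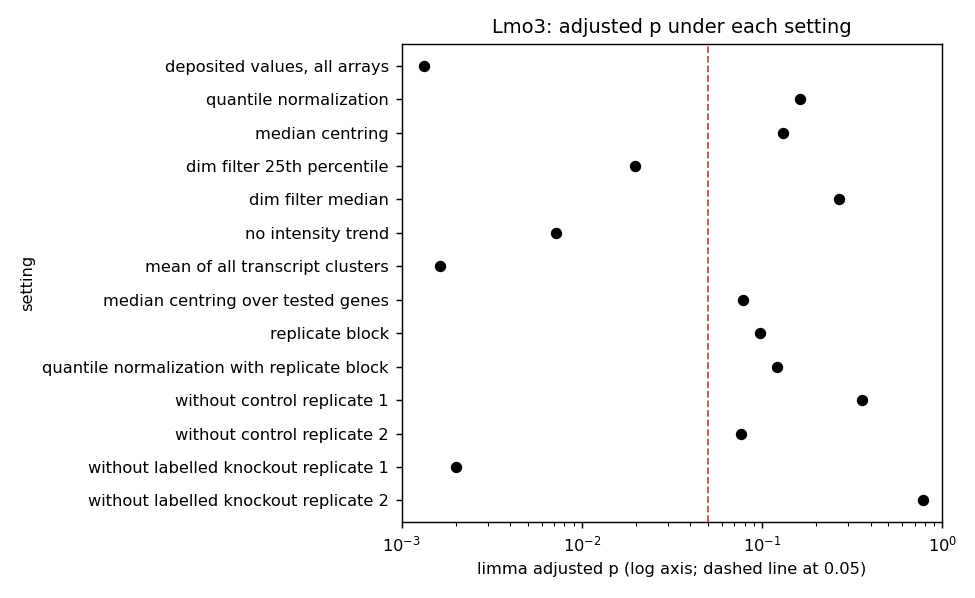
Limma adjusted p of Lmo3 (log axis) under each processing setting, with a dashed line at 0.05. The deposited values give 0.00134, and 9 of the other settings lie to the right of the line, up to 0.783 without labelled knockout replicate 2.

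Genes of a forebrain and hypothalamus list also rose. Like the other lists, it was chosen with earlier results of these data known, so its count of rises is no independent result. Of 12 listed, 10 were measured and 7 were called higher, beside 1.27% of all genes. The median difference of the list was 3.02 in replicate 1 and 4.42 in replicate 2. Lmo3 and the median of the macrophage list (0.41 and 0.57) also differed more in replicate 2. The medians of the retinal neuron (-0.83 and 0.06) and neuroretina lists (-1.17 and -0.9998) were higher there. With 2 replicate numbers, a shared order does not tell which cells gave the Lmo3 signal. Within the forebrain list Emx2 ran the other way (1.75 and 0.12). The summed linear signal of the forebrain list was 519 and 672 in control and 1109 and 2952 in labelled knockout arrays. In bulk tissue a change in the number of cells of a type and in RNA per cell cannot be told apart, and the part of these cells in the Lmo3 signal was not tested. By replicate number, periocular mesenchyme genes had medians of 2.95 and 0.94. Over the 4 arrays, the profiles nearest to that of Lmo3 among 10749 genes above the 75th percentile on at least 2 arrays were those of Cbln4, Uncx and Sorcs3. Their Euclidean distances from the mean-centred Lmo3 profile were 0.13, 0.16 and 0.17 log2 units. Cbln4, a secreted synaptic organiser, went from 3.50 and 3.995 in control to 5.07 and 6.15 in labelled knockout arrays. Uncx, a homeobox gene, went from 3.34 and 3.74 to 4.85 and 5.84, and the sorting receptor gene Sorcs3 from 3.15 and 3.49 to 4.41 and 5.54. Like Lmo3, all 3 lay below the 75th percentile on both control arrays and passed that filter through the labelled knockout arrays, so part of the likeness is set by the filter. All 3 share with Lmo3 a higher signal in replicate 2 of each group, as the array medians do.

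Lmo4 encodes a LIM-only protein found broadly in neural and epithelial tissue. Its log2 signal was 5.78 and 5.61 in control and 6.82 and 5.92 in labelled knockout arrays. Both labelled knockout signals were above both control signals, and replicate 1 stood apart. The difference of 0.67 (SE 0.36, 95% interval -0.03 to 1.38, limma adjusted p = 0.906) did not pass. It was 1.04 in replicate 1 and 0.31 in replicate 2, and ran from 0.22 to 1.12 with 1 array left out. Lists of 2 neighbouring tissues also differed more between the replicate 1 arrays. This order was not particular to them. The endothelium (1.40 and 0.44), muscle (1.33 and -0.02) and erythroid lists (0.92 and 0.00016) shared it. Periocular mesenchyme genes had medians of 2.95 and 0.94, with 10 of 13 measured members passing as higher and a summed linear signal of 246 and 323 in control and 3116 and 685 in labelled knockout arrays. Pigment epithelium genes had medians of 2.00 and 0.42, with 7 of 12 higher and sums of 229 and 565 in control and 1314 and 721 in labelled knockout arrays. Beside these counts, 1.27% of all genes were called higher. The part of these tissues in the Lmo4 values was not tested.

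Lmo1 and Lmo2 were the other LIM-only genes. The Lmo1 signal was 5.41 and 6.46 in control and 5.11 and 6.29 in labelled knockout arrays. Replicate 2 exceeded replicate 1 by 1.05 in control and by 1.17 in labelled knockout arrays, more than the genotype difference of -0.24 (95% interval -0.95 to 0.48, limma adjusted p = 1.00). Within replicate numbers Lmo1 differed by -0.30 and -0.17. Lmo2, a partner of Tal1 and GATA factors in blood and endothelial cells, had signals of 3.93 and 4.46 in control and 4.13 and 4.75 in labelled knockout arrays. The control signals lay below the 75th percentile and the labelled knockout signals above it, but the groups overlapped. The Lmo2 difference was 0.24 (95% interval -0.66 to 1.14, limma adjusted p = 1.00), or 0.20 and 0.28 by replicate number. In the same arrays the endothelium list had medians of 1.40 and 0.44. Of its 12 members 1 passed (Tek), beside 1.27% of all genes called higher, and 10 had differences above 0. The summed linear signal was 645 and 766 in control and 734 and 620 in labelled knockout arrays. Kdr, the brightest gene of the list, weighed most in this sum. It went from 8.94 and 9.02 in control to 8.23 and 8.13 in labelled knockout arrays. The 11 measured macrophage and microglia genes had medians of 0.41 and 0.57, with summed signals of 169 and 266 in control and 263 and 405 in labelled knockout arrays. The 7 measured erythroid genes had medians of 0.92 and 0.00016, with sums of 142 and 300.2 in control and 276 and 407 in labelled knockout arrays. Their part in the Lmo2 signal was not tested. The lowest log2 signal of any cluster was 1.69, so no marker is at 0 on this scale.

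**Figure D3:**
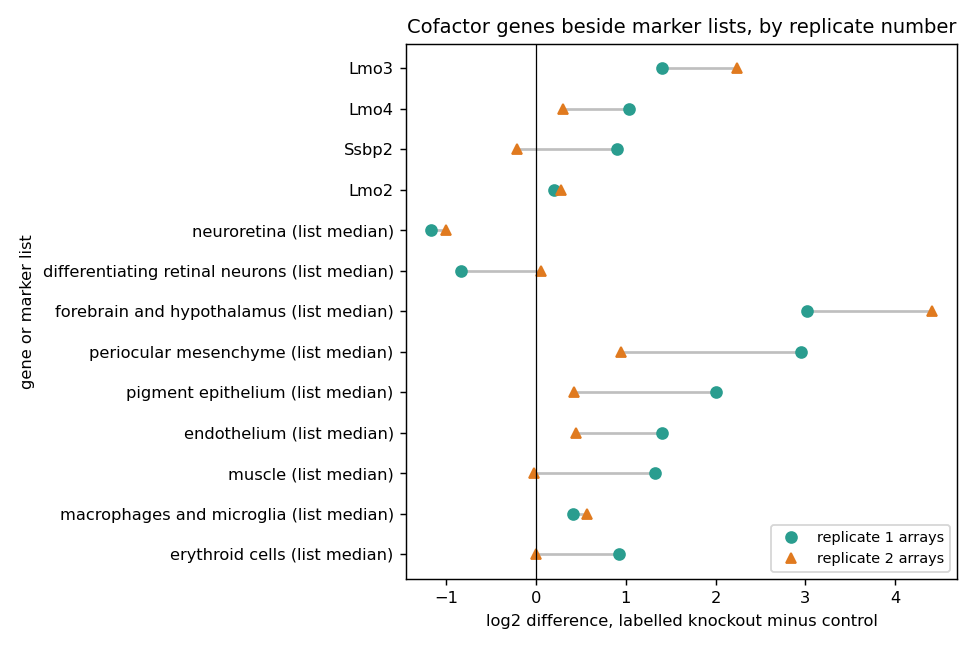
Log2 difference, labelled knockout minus control, between the replicate 1 arrays (circles) or the replicate 2 arrays (triangles), for 4 cofactor genes and for the medians of 9 marker lists. Lmo3, Lmo2 and the forebrain and hypothalamus, macrophage, retinal neuron and neuroretina lists lie further right in replicate 2, while Lmo4, Ssbp2 and the mesenchyme, pigment epithelium, endothelium, muscle and erythroid lists lie further right in replicate 1.

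The Ldb genes encode the scaffold itself. Ldb1, the broadly expressed member, had signals of 9.46 and 9.39 in control and 9.48 and 9.47 in labelled knockout arrays. The 4 values lay within 0.1 log2 units of each other, and the labelled knockout pair lay just above the control pair. The Ldb1 difference was 0.05 (95% interval -0.87 to 0.98, limma adjusted p = 1.00), or 0.02 and 0.08 by replicate number. After quantile normalization, where the SE draws in part on the replicates of each gene, the 95% interval was -0.79 to 0.87. Ldb2, its relative, gave 3.97 and 4.35 in control and 4.01 and 4.13 in labelled knockout arrays. Labelled knockout replicate 1 alone exceeded the 75th percentile of its array, so Ldb2 was at most barely told from background. The Ldb2 difference was -0.09 (95% interval -1.02 to 0.84, limma adjusted p = 1.00).

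The Ssbp genes encode the proteins that stabilise Ldb. Ssbp4 gave 5.56 and 5.60 in control and 5.24 and 5.27 in labelled knockout arrays, with both labelled knockout signals below both control signals and little spread within a group. Its difference of -0.33 (95% interval -1.08 to 0.43, limma adjusted p = 1.00), or -0.32 and -0.33 by replicate number, did not pass. With the replicate number as a term the limma adjusted p of Ssbp4 was 0.333. Ssbp3 gave 6.20 and 6.47 in control and 6.40 and 6.60 in labelled knockout arrays. The groups overlapped, and the difference was 0.17 (95% interval -0.52 to 0.86, limma adjusted p = 1.00).

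Ssbp2, a candidate tumour suppressor in human leukaemia, was the one member with several transcript clusters (3). The brightest gave 5.47 and 7.07 in control and 6.37 and 6.85 in labelled knockout arrays. Control replicate 1 stood low, the groups overlapped, and the difference of 0.34 (95% interval -0.35 to 1.03, limma adjusted p = 1.00) split into 0.90 in replicate 1 and -0.22 in replicate 2. The second cluster differed by 0.06 (0.17 and -0.06 by replicate number) and the dimmest by 0.60 (0.18 and 1.01). The dimmest cluster exceeded the 75th percentile on labelled knockout replicate 2 alone, so its values are mostly not told from background, and the 2 brighter clusters both differed more in replicate 1.

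Rlim is X-linked. Its signal was 7.21 and 8.02 in control and 7.23 and 7.88 in labelled knockout arrays. The Rlim signal was higher in replicate 2 of each group, as the array medians were. The Rlim difference was -0.06 (95% interval -0.77 to 0.65, limma adjusted p = 1.00), or 0.02 and -0.14 by replicate number. Xist, the RNA that coats the inactive X chromosome and whose expression Rlim promotes, gave 9.68 and 9.95 in control and 10.69 and 10.31 in labelled knockout arrays. The Y-linked gene Eif2s3y gave 5.93 and 6.80 in control and 5.40 and 6.47 in labelled knockout arrays. Xist, Eif2s3y and Kdm5d, another Y-linked gene, lay above the 75th percentile on every array, while Uty, also Y-linked, did so in the control arrays alone. By replicate number the differences were 1.01 and 0.36 for Xist, -0.54 and -0.33 for Eif2s3y, -0.90 and 0.27 for Kdm5d and -0.998 and -0.946 for Uty. None of these 4 genes passed limma's adjusted p of 0.05, beside 2.05% of all genes. The lowest adjusted p was 0.681 for Uty, whose unadjusted limma p was 0.0392. The Uty groups did not overlap, as for 10.2% of all genes in the same direction. Among 5 measured genes linked to Rlim, 0 passed limma's adjusted p of 0.05, beside 2.05% of all genes. An unadjusted p under 0.05 was found for 0 of the 5, beside 6.28% of all genes. The lowest p values were those of Rnf6, a related ubiquitin ligase, at -0.43, and of Smurf2, another ubiquitin ligase, at 0.14.

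The proteins that these cofactors bind gave a different count. Of 12 LIM-homeodomain genes, 3 rose (Lhx5 by 4.16, Lhx9 by 3.50 and Lhx1 by 3.56 on the log2 scale) and 1 fell (Isl1, -1.27), while 8 did not pass. Both control signals of Lhx5, Lhx9 and Lhx1 lay below the 75th percentile, so the size of these rises is measured against signals that may be background. Isl1 no longer passed without the intensity trend (limma adjusted p = 0.228), with the dim genes left out, after each rescaling, with the replicate number as a term or with any 1 array left out. Lhx5 and Isl1 also stand in the marker lists for forebrain and for retinal neurons. The background is 1.27% called higher and 0.78% called lower. All 3 rises were larger in replicate 2, as for Lmo3 (4.67 against 3.66 for Lhx5). After quantile normalization 0 of the 12 passed limma's adjusted p of 0.05, and so did 0 of all 20252 genes. In that setting 6 of the 12 had an unadjusted p under 0.05, beside 11.2% of all genes. With the replicate number as a term 0 passed, again as over all genes, and 7 had an unadjusted p under 0.05, beside 17.3% of all genes. Of 14 measured basic helix-loop-helix and GATA partners, 0 passed limma's test, beside 2.05% of all genes. An unadjusted p under 0.05 was found for 2, beside 6.28% of all genes. These were the neuronal factors Nhlh1 and Nhlh2, the latter a binding partner of LMO3 in human neuroblastoma. Nhlh1 gave 6.46 and 6.16 in control and 7.13 and 7.69 in labelled knockout arrays (difference 1.10, limma adjusted p = 0.0772), and Nhlh2 gave 5.69 and 5.85 against 6.29 and 7.20 (0.97, limma adjusted p = 0.193). The groups did not overlap for either gene, as for 9.63% of all genes in the same direction. Tal1, Gata1 and Lyl1, partners of Lmo2 in blood cells, were among 7 of the 14 that lay below the 75th percentile on all 4 arrays. Others on the list did not. Tcf3 lay above it on all 4 (7.19 and 6.98 in control, 7.06 and 6.46 in labelled knockout arrays), and Gata2 on labelled knockout replicate 1 alone (4.08).

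**Figure D4:**
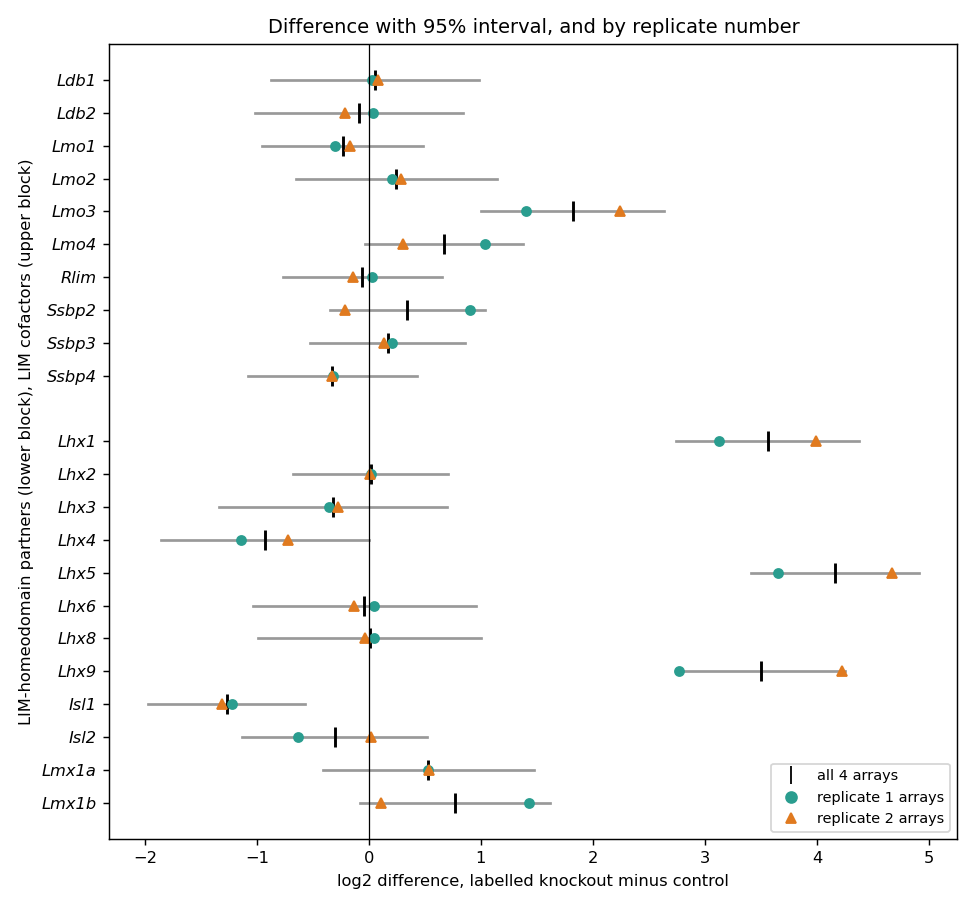
Log2 difference, labelled knockout minus control, of the 10 LIM cofactor genes (upper block) and 12 LIM-homeodomain genes (lower block). Black ticks and grey bars show the difference over all 4 arrays with its 95% interval on deposited values, circles the replicate 1 arrays and triangles the replicate 2 arrays; Lmo3 at 1.82 is the one cofactor gene whose interval lies off 0.

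LIM proteins that act in the cytoplasm and cytoskeleton stood beside these as genes of the same domain but another function. Of 19 measured, 0 passed limma's test on deposited values, beside 2.05% of all genes. An unadjusted p under 0.05 was found for 3, beside 6.28% of all genes. The median difference was -0.03. Pdlim3, an actinin-binding protein of muscle, gave 2.98 and 3.51 in control and 5.38 and 4.24 in labelled knockout arrays (difference 1.57, limma adjusted p = 0.0531). Without the intensity trend its adjusted p was 0.0424, which passes. It differed by 2.41 in replicate 1 and by 0.73 in replicate 2. Muscle genes had medians of 1.33 and -0.02 there, with 1 of 9 measured members called higher, beside 1.27% of all genes. Their summed signals were 119 and 167 in control and 514 and 180.4 in labelled knockout arrays. Their part in the Pdlim3 signal was not tested. Csrp2, a LIM-only protein of smooth muscle and progenitor cells, gave 7.38 and 8.04 in control and 6.64 and 6.93 in labelled knockout arrays, and did not pass (difference -0.92, limma adjusted p = 0.262).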

How the data were processed

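Log2 signals per transcript cluster were used as deposited by the authors in a series value table of 4 arrays. The submitters' processing notes name RMA, Partek and mm9 and give no versions. RNA was labelled with the Affymetrix whole-transcript sense assay after ribosomal RNA reduction, per the labels' protocols. Scanner signals and cluster positions were not used here.

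Clusters were named from a platform annotation table: of 112205, 25513 had 1 symbol, 2290 had several and 84402 were unnamed here. Each of 20252 genes was represented by its cluster of highest mean signal. The test was limma 3.58.1 (R 4.3.3) with eBayes set to an intensity trend (genotype as the only term, two-sided, Benjamini-Hochberg adjusted p of 0.05), and the script was tested on simulated data. No dim genes were left out. The number of arrays limits the precision.

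The members and lists were chosen with earlier results of these data known. All 10 members are named, as are from each partner list up to 6 passing genes taken by p, or failing any the leading 2, and the 3 genes of most similar profile to a passing member. Tal1, Gata1, Lyl1, Tcf3, Gata2 and the named markers were chosen after their values were seen. Across genes, the deviations of same-numbered arrays correlated at 0.479. With 2 numbers this does not establish pairing, so differences by replicate number are given as values. Alternatives covered array scale, dim genes, the variance prior, several clusters per gene, the threshold, the replicate number and each array left out.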

Additional observations from a re-analysis of the deposited data

How the results depend on the processing

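Counts of calls depended on the setting, and not on the scale of the arrays alone. The replicate block kept the deposited scale and also gave 0 calls. The degrees of freedom were 40504 on deposited values and 4.71 after quantile normalization. Over all genes limma called 415 on deposited values (1272 at an unadjusted p under 0.05). It called 0 after quantile normalization (2263 at an unadjusted p under 0.05), 0 with arrays centred over all clusters (1959), 0 with the replicate block (3513) and 0 with quantile normalization and the replicate block (3152). It called 118 with arrays centred over the tested genes, a setting added after seeing the data, 272 and 19 without genes below the 25th percentile and the median of level, and 271 without the intensity trend. Leaving out 1 array gave 127 to 285 calls. Of the 10 cofactor genes, the 1 call (Lmo3) became 0 under quantile normalization, both centrings, the filter at the median and the replicate block with or without quantile normalization, and was 0 to 1 with an array left out. The 4 LIM-homeodomain calls became 0 after quantile normalization, after centring over all clusters and with the replicate block with or without quantile normalization. They became 1 with the filter at the median. They became 3, the rises without the fall of Isl1, with the filter at the 25th percentile, without the intensity trend, with centring over tested genes and with each array left out.

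Of 128 member values under other settings, 108 kept direction and side of the threshold, 9 (all Lmo3) kept direction but no longer passed, and 11 changed sign. Lmo3 kept its direction in every setting (adjusted p 0.00164 to 0.783). The sign changes were in members that did not pass. Ldb2 became 0.0087 and Rlim 0.039 after centring over all clusters, and Ldb1 -0.026 after centring over tested genes. With arrays left out, Ldb2 ran from -0.28 to 0.10, Lmo1 from -0.82 to 0.35, Lmo2 from -0.066 to 0.55, Rlim from -0.46 to 0.35 and Ssbp2 from -0.46 to 1.14, while the median over all genes ran from -0.33 to 0.20 because array levels follow the replicate number. The cause of the other changes was not tested.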
